A study of Homo sapiens with 12 samples.

Results

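Human mitochondrial DNA encodes 37 RNAs, and all 37 had counts in both deposited tables, out of 61163 genes listed. They are 13 mRNAs, 2 rRNAs and 22 tRNAs, picked by a rule on gene names that uses no measured value. Earlier results of these data were known when they were chosen. The genes are written here as the tables write them, so that TRNF stands for the tRNA gene also called MT-TF. The libraries came from HEK293T cells, an established line of human embryonic kidney origin, either wild-type (HEK WT) or carrying an HNRNPUL1 knockout (HEK UL1 KO) made with CRISPR-Cas9 and guides to exons 2 and 3. Whether the knockout line is 1 clone is not given in the sources used here. HNRNPUL1 encodes hnRNP UL1, an RNA-binding protein of the nucleus. Cells were separated into a nucleolar fraction (NO) and a fraction of cytoplasm and remaining nucleus (CN), to which mitochondria, as part of the cytoplasm, belong, and total RNA was sequenced without rRNA depletion. There were 3 libraries for each of the 4 groups, which the submitters describe as biological triplicates, and no group received a drug or other treatment.

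Mitochondrial DNA is transcribed from both strands into long precursors that run through many genes. The tRNAs lie between the mRNAs and rRNAs, and their excision at both ends frees most of the neighbouring RNAs. The tRNAs then receive a CCA tail and modified bases, and the mRNAs, which encode subunits of the respiratory chain and ATP synthase, mostly receive a poly(A) tail. In GRCh38, 28 of the 37 genes lie on the plus strand of the mitochondrial chromosome, namely 12 mRNAs, both rRNAs and 14 tRNAs. The other 9 lie on the minus strand and are usually called light-strand encoded. They are ND6, a subunit of respiratory complex I, and the tRNAs for glutamine (TRNQ), alanine (TRNA), asparagine (TRNN), cysteine (TRNC), tyrosine (TRNY), serine of the UCN codons (TRNS1), glutamate (TRNE) and proline (TRNP). The precursor of this strand is mostly RNA that is degraded, apart from these products.

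The sequences of the 8 minus-strand tRNA genes are shown because the clearest difference between the genotypes lay in them, and TRND, a plus-strand tRNA that differed in the other direction, is shown beside them. They were read from the RefSeq annotation and GRCh38 sequence of the mitochondrial chromosome (M), are written as DNA in the sense of the tRNA from 5′ to 3′, and carry the anticodon in capitals; the CCA tail is added after transcription and is not in them.
TRNQ, chrM:4329-4400, minus strand: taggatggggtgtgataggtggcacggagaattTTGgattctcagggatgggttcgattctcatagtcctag
TRNA, chrM:5587-5655, minus strand: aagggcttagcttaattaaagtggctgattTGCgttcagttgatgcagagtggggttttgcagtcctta
TRNN, chrM:5657-5729, minus strand: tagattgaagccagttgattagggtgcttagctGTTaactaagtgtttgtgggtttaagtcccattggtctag
TRNC, chrM:5761-5826, minus strand: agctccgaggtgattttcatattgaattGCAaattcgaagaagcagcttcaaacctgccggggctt
TRNY, chrM:5826-5891, minus strand: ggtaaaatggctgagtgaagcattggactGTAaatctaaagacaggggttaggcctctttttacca
TRNS1, chrM:7446-7514, minus strand: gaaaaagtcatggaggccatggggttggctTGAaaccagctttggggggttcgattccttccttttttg
TRNE, chrM:14674-14742, minus strand: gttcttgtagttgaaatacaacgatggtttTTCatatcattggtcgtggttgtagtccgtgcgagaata
TRNP, chrM:15956-16023, minus strand: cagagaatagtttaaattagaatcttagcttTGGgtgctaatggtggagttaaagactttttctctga
TRND, chrM:7518-7585, plus strand: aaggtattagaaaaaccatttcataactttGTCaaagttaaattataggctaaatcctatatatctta
TRNA, TRNN, TRNC and TRNY form a run between TRNW and COX1, and the 31 bases between TRNN and TRNC hold the origin of light-strand replication. G made up 23.5 to 36.1% of the bases of the 8 minus-strand tRNA genes (median 28%) and 10.3 to 19.1% in the 14 plus-strand tRNA genes (median 15.4%). The GC content ranged from 33.8% (TRNP) to 49.3% on the minus strand and from 23.1 to 45.8% on the plus strand, with 23.5% in TRND. All 9 printed genes are shorter than the reads of 75 bases, so that a read over a whole tRNA gene also covered some adjoining sequence or was trimmed.

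The total count per library was 37141666 to 83019079 in NO and 54349399 to 104040073 in CN, and nuclear-encoded rRNA held 55.3 to 65.1% and 73.9 to 78.7% of it, respectively. HNRNPUL1 was lower in HEK UL1 KO in both fractions (log2 fold change -2.0 in NO, adjusted p = 0.00649, and -1.83 in CN, adjusted p = 2.12e-07, edgeR), from 17.8, 15.4 and 18 CPM (counts per 1000000 after scaling) in CN of HEK WT to 4.75, 4.80 and 4.86. The nucleolar RNAs SNORD3A and SNORD13 were higher in NO than in CN in HEK WT (log2 4.67 and 4.89). SNORD118 and RMRP were also higher (3.75 and 1.93), whereas the nuclear RNAs MALAT1 and NEAT1 were lower in NO (-1.08 and -1.16). Of the cytosolic RNAs, ACTB and EEF1A1 were lower in NO (-0.86 and -0.83), and GAPDH (-0.56) and RN7SL1 (0.29) were not called. How much cytoplasm NO carried was not tested. PAX2, EYA1, NEFL, NEFM and INA, which HEK293 lines are known to express, were detected, and INA fell to 0.116 CPM in CN of HEK UL1 KO from 2.84 CPM (adjusted p = 4.08e-07, edgeR). Of 7 markers of other cell types, HBB was too low to be tested in any comparison, and CD3E, ALB and KRT14 had group means at or under 0.271 CPM where they were tested. PTPRC, PECAM1 and COL1A1 were at 1.41, 1.97 and 0.827 CPM in NO of HEK WT and at 1.57, 2.69 and 1.14 CPM in NO of HEK UL1 KO, near some of the HEK markers (PAX2 at 2.58 and 3.22 CPM). PTPRC and PECAM1 were higher in NO than in CN in HEK WT (log2 2.46 and 1.94) and in HEK UL1 KO (1.67 and 1.703), as the mitochondrial RNAs were, and their part in the results below was not tested.

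The 37 genes together held more of the counts in NO than in CN. Their share of all counts was 11.5, 17.1 and 12.8% in the 3 NO libraries of HEK WT and 9.42, 9.03 and 15.8% in those of HEK UL1 KO. In CN it was 3.34, 3.88 and 2.39% in HEK WT and 4.21, 3.93 and 3.92% in HEK UL1 KO, so the 2 fractions did not overlap. A larger share can reflect more of the RNA in each cell, more mitochondria carried into a fraction or less of other RNA in it, which cannot be told apart in bulk RNA. Nuclear-encoded rRNA held less of the counts in NO than in CN, as given above. Of the counts outside it, the 37 genes held 35.03% and 28.95% in NO of HEK WT and HEK UL1 KO. In CN they held 13.1% and 15.7%.

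Within the 37 genes, the division among rRNA, mRNA and tRNA differed little between the 4 groups. The rRNAs RNR1 and RNR2, of the small and large mitochondrial ribosomal subunits, held on average 87.6% of the genes' counts in NO of HEK WT, 88.5% in NO of HEK UL1 KO, 85.9% in CN of HEK WT and 87.5% in CN of HEK UL1 KO. The mRNAs held 10.1, 9.34, 11.5 and 10.1% in the same order, and the tRNAs 2.34, 2.19, 2.52 and 2.45%. The 9 minus-strand genes held very little: 0.0663, 0.0432, 0.0667 and 0.0433%.

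**Figure D1:**
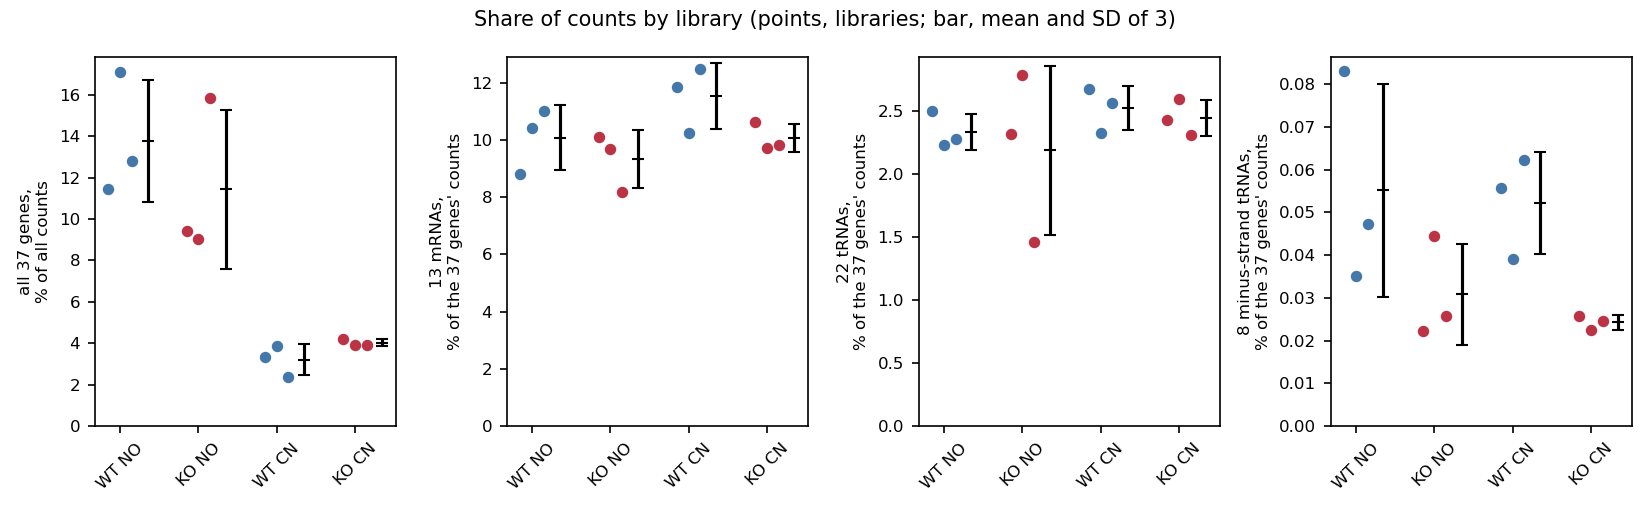
Shares of counts by library in the 4 groups, with points for libraries and bars for the mean and SD of 3; the panels give, from left to right, all 37 genes as a percent of all counts, then the 13 mRNAs, the 22 tRNAs and the 8 minus-strand tRNAs as a percent of the counts of the 37 genes. The minus-strand tRNAs of the CN fraction lay between 0.0390 and 0.0621% in HEK WT and between 0.0224 and 0.0257% in HEK UL1 KO.

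Compared per length, as each gene's counts per base relative to the sum of this value over the 37 genes, set to 1000000, RNR2 came first and RNR1 next in all 4 groups, and the tRNAs TRNV and TRNF beside them followed. In CN of HEK WT the per-length levels were 320457 for RNR2, 247751 for RNR1, 160444 for TRNV and 97616 for TRNF, and the next gene, ATP6, was at 18684. TRNF, RNR1, TRNV and RNR2 adjoin with no base between them, and the reads are longer than a tRNA, so the values of TRNV and TRNF may hold reads of their rRNA neighbours. At the other end stood the minus-strand genes TRNS1 (429), TRNP (311) and ND6 (236) on the same per-length scale. ND6 was also far below ND5, another complex I subunit, which ends on the plus strand at the base before ND6 begins: its level per length was 4.66% of that of ND5 in NO and 6.33% in CN of HEK WT, and 5.40% and 7.98% in HEK UL1 KO.

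The genotypes were compared in CN to ask how the knockout changed each RNA outside the nucleolus. Of the 8 minus-strand tRNAs, 7 fell, to between 0.399 and 0.618 times the level of HEK WT, and TRNP did not pass the test. Over all 37 genes, 15 were lower and 4 higher at an adjusted p under 0.05 (edgeR), that is 40.5% and 10.8% of them, where 22.3% and 15.6% of the 27234 genes tested were lower and higher. Scaled to total counts, 6 were lower and 4 higher, where 6.33% and 13.6% of all genes were, and with GAPDH as a single reference gene 20 and 1, beside 33.3% and 4.01% of all genes. GAPDH was itself higher in HEK UL1 KO in the main fit (0.34), and as the reference it brings the median of all genes to -0.31. The median log2 fold change in the main fit was -0.99 for the minus-strand tRNAs, -0.08 for the 14 plus-strand tRNAs, -0.15 for the 13 mRNAs and 0.15 for the rRNAs, beside 0.04 for all genes tested.

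**Figure D2:**
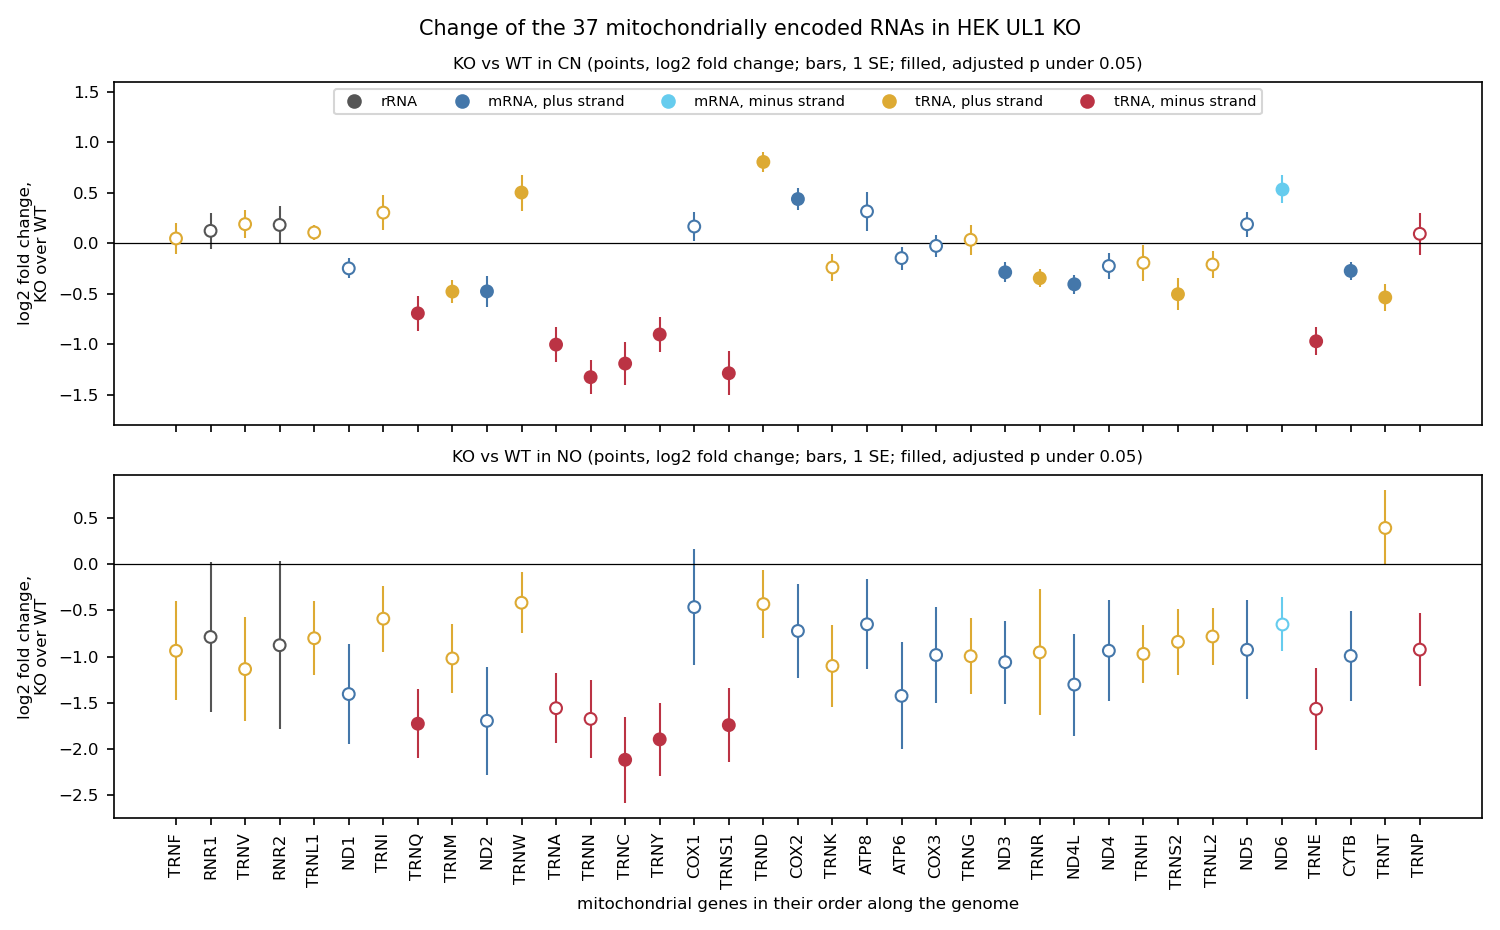
Log2 fold change of HEK UL1 KO over HEK WT for the 37 genes in their order along the mitochondrial chromosome, in CN (upper panel) and NO (lower panel), coloured by class and strand, with bars of 1 SE and filled points for an adjusted p under 0.05. In CN 7 of 8 minus-strand tRNAs lie between -0.69 and -1.33 and TRNP lies at 0.09.

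TRNN, the tRNA for asparagine, changed most. It was at 3.11, 2.48 and 3.47 CPM in the HEK WT libraries and at 1.45, 1.05 and 1.10 CPM in the HEK UL1 KO libraries (log2 fold change -1.33, SE 0.17, adjusted p = 0.000182). The highest knockout library was thus below the lowest wild-type one. TRNS1, the tRNA for serine of the UCN codons, was at 1.22, 1.01 and 1.26 CPM in HEK WT and 0.520, 0.347 and 0.574 CPM in HEK UL1 KO (-1.29, SE 0.22, adjusted p = 0.00111). TRNC, for cysteine, was at 1.38, 1.09 and 1.62 CPM in HEK WT and 0.739, 0.546 and 0.490 CPM in HEK UL1 KO (-1.19, SE 0.22, adjusted p = 0.00159). Neither of these overlapped between the genotypes.

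TRNA, for alanine, was at 2.06, 1.59 and 2.35 CPM in HEK WT and 1.05, 0.893 and 1.05 CPM in HEK UL1 KO (-1.0, SE 0.18, adjusted p = 0.00125). TRNE, for glutamate and the most abundant of the 8 per length, was at 5.82, 4.45 and 6.30 CPM and at 3.19, 2.65 and 2.60 CPM (-0.97, SE 0.14, adjusted p = 0.000379). The genotypes were separate in both. TRNY, for tyrosine, was at 1.76, 1.46 and 1.66 CPM in HEK WT and 1.04, 0.720 and 0.844 CPM in HEK UL1 KO (-0.90, SE 0.17, adjusted p = 0.00224). TRNQ, for glutamine, was at 2.11, 1.52 and 2.30 CPM and at 1.23, 1.19 and 1.25 CPM (-0.69, SE 0.17, adjusted p = 0.00907). All the knockout libraries again lay below all the wild-type ones, with the least change in TRNQ.

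TRNP, for proline, was the exception, at 0.998, 0.909 and 0.620 CPM in HEK WT and 0.944, 0.800 and 0.962 CPM in HEK UL1 KO (0.09, SE 0.21, adjusted p = 0.751). Its values overlapped between the genotypes, and it had the lowest GC content of the 8. Counts behind these 8 genes were small, between 26 and 498 per CN library. The 7 calls each held when any single CN library was left out.

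The same difference appeared against the other mitochondrial RNAs. The minus-strand tRNAs held 0.0556, 0.0390 and 0.0621% of the counts of the 37 genes in CN of HEK WT and 0.0257, 0.0224 and 0.0246% in HEK UL1 KO, a ratio of the means of 0.464, and these ranges did not overlap. When the libraries were scaled to the summed counts of the 13 mitochondrial mRNAs in place of TMM, the 7 tRNAs were again lower (median over all 8 of -0.94), while 16.1% of all genes tested were lower and 16.3% higher on that scale. Fitting all 12 libraries together, with a spread shared with NO, left 3 of the 7 called, TRNA, TRNN and TRNS1.

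**Figure D3:**
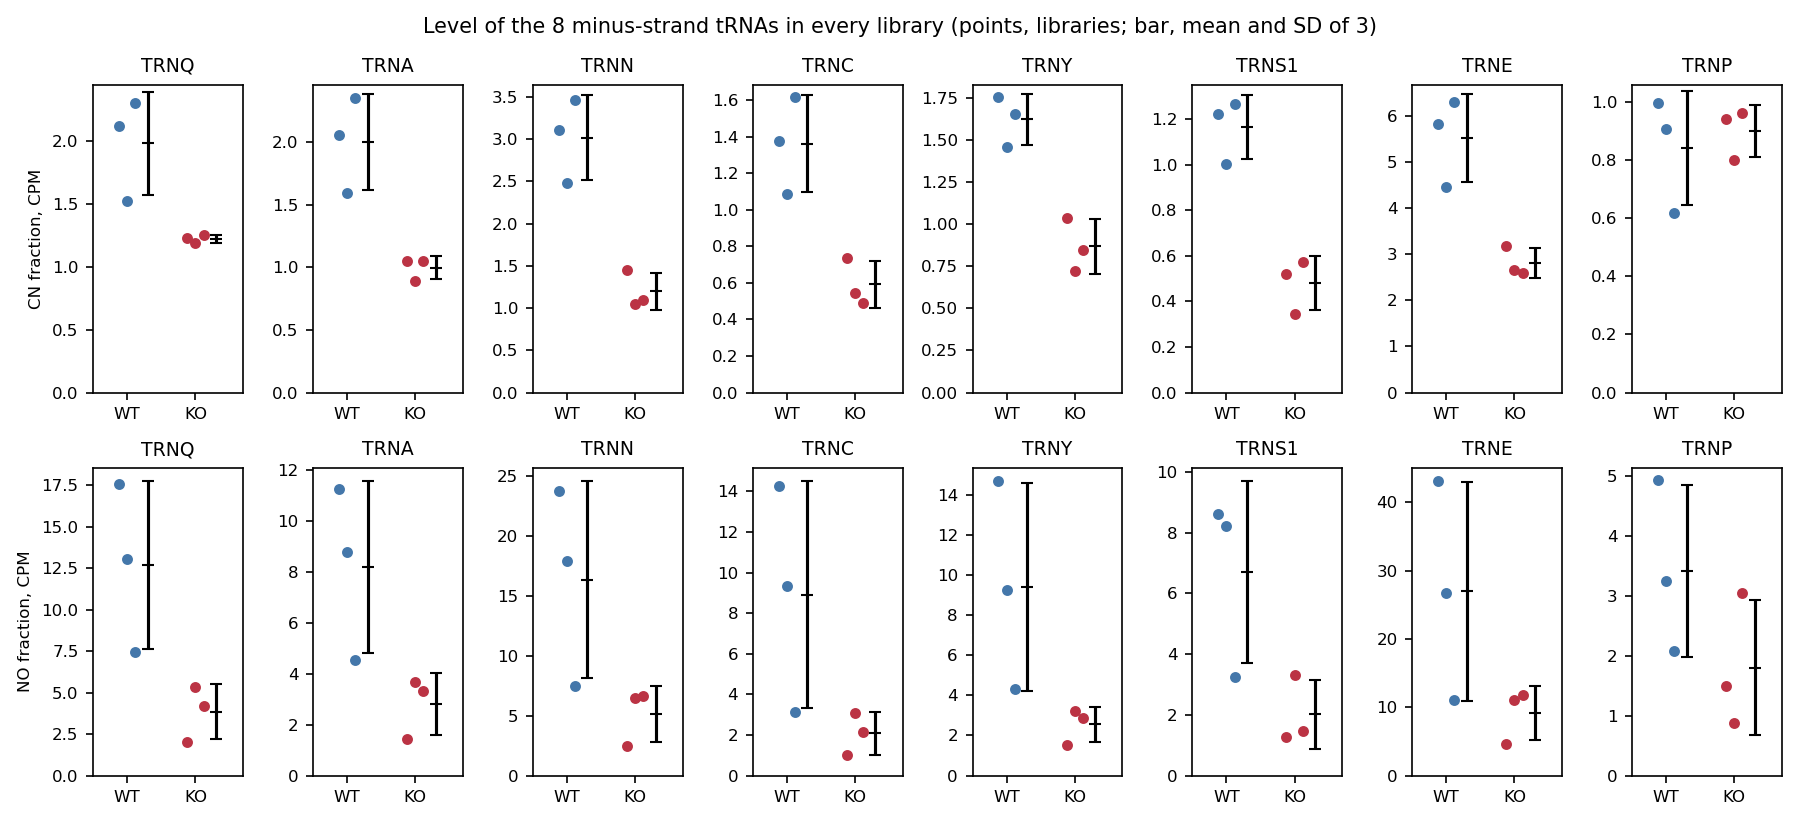
Level of the 8 minus-strand tRNAs in CPM in every library of CN (upper row) and NO (lower row), with points for libraries, bars for the mean and SD of 3, and a scale of its own in each panel. In CN all panels but TRNP have the 3 HEK UL1 KO libraries below the 3 HEK WT libraries.

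Other small structured RNAs were also lower in CN of HEK UL1 KO. Of 288 nuclear-encoded tRNA genes tested, 197 fell and 0 rose (68.4% and 0%, median -1.19). Of 189 snoRNA genes 82 fell and 3 rose (43.4% and 1.59%, median -0.81), beside 22.3% and 15.6% of all genes tested. The medians of the nuclear tRNAs and the minus-strand mitochondrial tRNAs were near each other, while that of the plus-strand mitochondrial tRNAs was near the median of all genes. Over the 22 mitochondrial tRNAs, GC content and the log2 fold change in CN had a Pearson r of -0.65 and a Spearman rho of -0.63. Within the 14 plus-strand tRNAs they were -0.44 and -0.30, and within the 8 minus-strand ones -0.62 and -0.33. These are descriptions over genes of the same libraries, strand and composition go together in these genes, and their part in the difference was not tested.

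The plus-strand tRNAs went both ways in CN, with 2 higher and 4 lower of 14 (14.3% and 28.6%, near the 15.6% and 22.3% of all genes tested). TRND, for aspartate, rose from 11.1, 9.17 and 9.84 CPM to 18.4, 15.6 and 18.5 CPM (log2 fold change 0.80, SE 0.09, adjusted p = 9.86e-05). It lies 3 bases from TRNS1, on the other strand, which fell as described above. TRNW, for tryptophan, was at 6.53, 4.22 and 6.83 CPM in HEK WT and 9.96, 6.84 and 8.09 CPM in HEK UL1 KO (0.50, SE 0.18, adjusted p = 0.0471), and its call was lost on leaving out any 1 of 4 of the 6 libraries. The 4 that fell were TRNT (-0.54), TRNS2 (-0.51), TRNM (-0.48) and TRNR (-0.35), which carry threonine, serine, methionine and arginine. TRNS2 lost its call without any 1 of 4 libraries, and TRNR without HEK UL1 KO replicate 3.

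The tRNAs that flank the rRNAs did not pass the test in CN. TRNF, for phenylalanine, was at 229, 357 and 244 CPM in HEK WT and 303, 264 and 291 CPM in HEK UL1 KO (0.05, adjusted p = 0.832). TRNV, for valine, was at 506, 389 and 416 CPM and at 514, 564 and 416 CPM (0.19, adjusted p = 0.314). TRNL1, for leucine, which follows RNR2, was at 21.2, 19.7 and 20.9 CPM and at 23.4, 22 and 21.1 CPM (0.11, adjusted p = 0.265). The libraries of the genotypes overlapped in all of them.

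Among the 13 mRNAs in CN, ND6 and COX2 were higher and ND2, ND4L, ND3 and CYTB lower, that is 15.4% and 30.8% of them, near the shares of all genes tested (15.6% and 22.3%). ND6, the minus-strand mRNA, was at 4.74, 5.44 and 4.57 CPM in HEK WT and 7.66, 5.52 and 8.19 CPM in HEK UL1 KO (0.53, SE 0.14, adjusted p = 0.0121), so it differed in the other direction from TRNE, which adjoins it with no base between. The lowest knockout library of ND6, replicate 2, was just above the highest wild-type one. Without HEK UL1 KO replicate 1 or replicate 3 the ND6 difference was 0.46 or 0.44 and was no longer called. COX2, a cytochrome c oxidase subunit, was at 250, 241 and 301 CPM and at 376, 333 and 362 CPM (0.44, SE 0.11, adjusted p = 0.0107), and this call was lost without HEK WT replicate 1 or 2 or without HEK UL1 KO replicate 1. With GAPDH as the single reference gene, ND6 and COX2 were 0.16 and 0.10 higher and neither was called. GAPDH was itself called higher in CN of HEK UL1 KO in the main fit (0.34, adjusted p = 0.0275, edgeR). That reference therefore lowers the values of all genes.

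The mRNAs that fell in CN did so by less than the minus-strand tRNAs. ND4L, a complex I subunit, was at 193, 230 and 215 CPM in HEK WT and 169, 152 and 161 CPM in HEK UL1 KO (-0.41, SE 0.10, adjusted p = 0.00720). CYTB, of complex III, was at 183, 175 and 184 CPM and at 161, 139 and 149 CPM (-0.27, SE 0.09, adjusted p = 0.0317). The genotypes were separate in both. ND2 and ND3, further subunits of complex I, differed by -0.48 (adjusted p = 0.0296) and -0.29 (adjusted p = 0.0437), and ND3 overlapped between the genotypes. ND3 and CYTB each lost the call without any 1 of 5 of the 6 CN libraries, ND2 without HEK WT replicate 1 or HEK UL1 KO replicate 2 or 3, and ND4L without HEK UL1 KO replicate 2. Scaling to total counts ended all 4 calls.

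COX1, the catalytic subunit of cytochrome c oxidase, was at 726, 777 and 854 CPM in HEK WT and 1067, 791 and 785 CPM in HEK UL1 KO in CN (0.16, adjusted p = 0.383). ATP8, of ATP synthase, was at 127, 102 and 121 CPM and at 125, 201 and 110 CPM (0.31, adjusted p = 0.215). In each, 1 knockout library stood above the rest. RNR1 was at 8337, 10941 and 8901 CPM in HEK WT and 10782, 9693 and 10189 CPM in HEK UL1 KO (0.12, SE 0.18, adjusted p = 0.605), and RNR2 at 20051, 21582 and 17862 CPM and at 23595, 22402 and 21423 CPM (0.18, SE 0.19, adjusted p = 0.475). Neither rRNA passed the test, and the remaining 5 mRNAs, ND1, ATP6, COX3, ND4 and ND5, did not either, with differences from -0.25 to 0.19.

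In NO, 4 of the 37 genes were lower in HEK UL1 KO and 0 were higher (10.8% and 0%, beside 0.574% and 0.365% of the 34836 genes tested), and all 4 were minus-strand tRNAs: TRNC, TRNY, TRNS1 and TRNQ. Differences of other genes in NO were wide in error: 36 of the 37 lay below 0, with medians of -1.70 for the minus-strand tRNAs, -0.89 for the plus-strand tRNAs, -0.98 for the mRNAs and -0.83 for the rRNAs, beside 0.00 for all genes tested. By the libraries alone, 10 of the 37 had all HEK UL1 KO libraries below all HEK WT libraries and 0 the reverse, whereas in CN these numbers were 15 and 4. The corresponding shares of all genes are not given here, so these counts do not set the 37 genes apart.

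TRNC was at 14.3, 9.31 and 3.12 CPM in NO of HEK WT and at 1.00, 3.08 and 2.16 CPM in HEK UL1 KO (log2 fold change -2.11, SE 0.46, adjusted p = 0.0387). TRNY was at 14.7, 9.22 and 4.30 CPM and at 1.53, 3.22 and 2.89 CPM (-1.89, SE 0.39, adjusted p = 0.0321). In both, HEK WT replicate 3 was the lowest of its group and only just above the knockout libraries in TRNC. TRNS1 was at 8.63, 8.23 and 3.24 CPM in HEK WT and 1.26, 3.32 and 1.48 CPM in HEK UL1 KO (-1.74, SE 0.40, adjusted p = 0.0474), with an overlap between that replicate and knockout replicate 2. TRNQ was at 17.6, 13.1 and 7.44 CPM and at 2.05, 5.34 and 4.20 CPM (-1.72, SE 0.37, adjusted p = 0.0379), without overlap. Among the other 4, TRNA (-1.56, adjusted p = 0.0569), TRNN (-1.67, adjusted p = 0.0667), TRNE (-1.56, adjusted p = 0.101) and TRNP (-0.92, adjusted p = 0.264) were not called.

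The NO calls rested on single libraries and on the scaling. The normalization factor of HEK WT replicate 3 was 1.40, against 0.690 and 0.622 for the other HEK WT replicates. Leaving this library out gave 27 genes lower, all 8 minus-strand tRNAs among them, but also raised the share of all genes called lower from 0.574% to 15.3%, whereas leaving out HEK WT replicate 1 gave 0, HEK WT replicate 2 gave 1 and HEK UL1 KO replicate 1 gave 2. Scaled to total counts or to the mitochondrial mRNAs, 0 of the 37 were called (on the latter scale 0.0861% of all genes were lower and 1% higher), and TRNC was at -1.49 and -1.18. The median of the minus-strand tRNAs was -0.77 on the scale of the mRNAs, and that of the plus-strand tRNAs 0.03. As in CN, nuclear tRNAs and snoRNAs had medians below 0 in NO (-1.06 over 119 genes and -1.05 over 304 genes). Of these, 7 (5.88%) and 52 (17.1%) were lower, beside 0.574% of all genes. The minus-strand tRNAs held 0.0831, 0.0351 and 0.0472% of the counts of the 37 genes in HEK WT and 0.0223, 0.0444 and 0.0258% in HEK UL1 KO, so unlike in CN these shares overlapped.

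No mRNA or rRNA passed the test in NO. RNR1 was at 43219, 70249 and 23594 CPM in HEK WT and 16808, 23539 and 39049 CPM in HEK UL1 KO (-0.79, SE 0.82, adjusted p = 0.636), and RNR2 at 104202, 170025 and 55941 CPM and at 44972, 49317 and 85527 CPM (-0.88, SE 0.91, adjusted p = 0.635). The rRNA libraries overlapped widely, since HEK WT replicate 3 and HEK UL1 KO replicate 3 stood on the far side of their groups. ND6 was at 19.4, 20.4 and 13.2 CPM and at 9.68, 12.6 and 11.5 CPM (-0.65, SE 0.29, adjusted p = 0.286), with no overlap, and its difference turned to 0.23 when the libraries were scaled to the mitochondrial mRNAs. COX1 was at 2206, 5680 and 1303 CPM and at 1624, 1878 and 3154 CPM (-0.47, adjusted p = 0.724). CYTB was at 811, 1223 and 489 CPM and at 353, 517 and 398 CPM (-0.99, adjusted p = 0.329). HEK WT replicate 2 had the highest value of both.

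ATP8 was at 318, 832 and 258 CPM in NO of HEK WT and 263, 317 and 317 CPM in HEK UL1 KO (-0.65, adjusted p = 0.514), and ND4L at 572, 1461 and 852 CPM and at 256, 230 and 684 CPM (-1.30, adjusted p = 0.258). TRNF was at 1081, 1725 and 511 CPM and at 389, 678 and 666 CPM (-0.94, adjusted p = 0.393), TRNV at 2531, 3677 and 1286 CPM and at 1060, 1349 and 1004 CPM (-1.13, adjusted p = 0.329), and TRNL1 at 69.8, 91.5 and 31.3 CPM and at 24.1, 39.6 and 46.9 CPM (-0.80, adjusted p = 0.338). All these overlapped between the genotypes. The highest difference in NO was that of TRNT, at 14.9, 14.2 and 10.7 CPM in HEK WT and 6.90, 30.5 and 14.9 CPM in HEK UL1 KO (0.39, adjusted p = 0.637), where knockout replicate 2 alone was high, and TRNW and TRND came next. TRNW was at 19.9, 27.9 and 14.8 CPM and at 14.6, 11.4 and 20.9 CPM (-0.42, adjusted p = 0.533), and TRND at 33.8, 61.4 and 23 CPM and at 21.3, 31.8 and 34.5 CPM (-0.43, adjusted p = 0.569). These overlapped as well. In HEK UL1 KO replicate 2, the library with the high TRNT, TRNR had 24 counts, against 857 to 1332 in the other NO libraries. TRNG, ND3 and ND4L, which lie around TRNR, were also low in that library, at 154, 2574 and 9758 counts. In the other NO libraries they had 655 to 893, 7691 to 10248 and 22295 to 50498 counts.

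Whether the effect of the knockout differed between NO and CN was tested as an interaction over all 12 libraries, in which 0 of the 37 genes were called (0.0846% and 0.0291% of 37806 genes were, in the higher and lower direction). DESeq2 also called 0 of them. The interaction nearest the threshold was that of ND6, at -1.04 (SE 0.28, adjusted p = 0.455), because its knockout libraries were all lower in NO and all higher in CN. A difference between the fractions was therefore not shown for any of the genes, the minus-strand tRNAs included.

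NO was compared with CN within each genotype to ask which mitochondrial RNAs came with the nucleolar fraction. In HEK WT all 37 were higher in NO, where 31.9% of the 29340 genes tested stood higher and 20.9% lower than in CN. In HEK UL1 KO 18 were higher and 0 lower, beside 40.7% and 35.6% of 34468 genes. These comparisons share their libraries with those of the genotypes above, so their values are set side by side and are not independent. CPM are scaled within each comparison and therefore differ from those above.

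In HEK WT the log2 difference of NO over CN ran from 0.59 for TRNR to 2.19 for TRNC, and its median was 1.97 for the minus-strand tRNAs, 1.46 for the plus-strand tRNAs, 1.69 for the mRNAs and 1.86 for the rRNAs. TRNC was at 10.4, 6.27 and 2.72 CPM in NO and 1.42, 1.11 and 1.73 CPM in CN (adjusted p = 0.00439), and TRNQ at 12.8, 8.79 and 6.49 CPM and at 2.17, 1.55 and 2.46 CPM (2.18, adjusted p = 0.00196). TRNY followed, at 10.7, 6.21 and 3.75 CPM and at 1.81, 1.49 and 1.77 CPM (2.03, adjusted p = 0.00396). In these 3 tRNAs all NO libraries were above all CN libraries, by the least in NO replicate 3. TRNR was at 16.1, 22.2 and 15 CPM in NO and 11.9, 11.2 and 12.3 CPM in CN (adjusted p = 0.0195). TRNT was next lowest, at 10.9, 9.58 and 9.36 CPM and at 5.77, 5.23 and 5.27 CPM (0.88, adjusted p = 0.00396), and then TRNL1, at 51.0, 61.6 and 27.3 CPM and at 21.8, 20.1 and 22.3 CPM (1.12, adjusted p = 0.00774). The fractions were separate in these as well. RNR1 and RNR2 differed by 1.77 (adjusted p = 0.0271) and 1.96 (adjusted p = 0.0345). The rRNA calls were lost without either of HEK WT NO replicates 1 and 2 and without any 1 of the 3 CN libraries.

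In HEK UL1 KO 7 of the 8 minus-strand tRNAs, 6 of the 14 plus-strand tRNAs, 5 of the 13 mRNAs and neither rRNA were higher in NO. The shares of the plus-strand tRNAs (42.9%) and the mRNAs (38.5%) were near the 40.7% of all genes, and that of the minus-strand tRNAs was 87.5%. The medians were 1.05, 0.50 and 0.59 for the tRNAs of the minus and plus strand and the mRNAs. TRNT was at 6.34, 28.1 and 13.6 CPM in NO and 5.03, 6.09 and 3.93 CPM in CN (1.66, adjusted p = 0.00320), and TRNN at 2.23, 5.91 and 6.02 CPM and at 2.03, 1.51 and 1.49 CPM (1.47, adjusted p = 0.00182). TRNS1 was at 1.16, 3.05 and 1.35 CPM and at 0.727, 0.495 and 0.777 CPM (1.44, adjusted p = 0.00351). NO replicate 1 was near the CN libraries in both TRNT and TRNN. At the low end were TRNR at -0.14, with 11.1, 0.519 and 22.5 CPM in NO and 11.9, 14.4 and 11 CPM in CN, ND6 at 0.06 (8.90, 11.6 and 10.5 CPM in NO, 10.7, 7.88 and 11.1 CPM in CN, adjusted p = 0.763) and TRNL1 at 0.13, with 22.1, 36.4 and 42.8 CPM in NO and 32.7, 31.5 and 28.5 CPM in CN. The fractions overlapped in these 3. RNR1 and RNR2 differed by 0.77 (adjusted p = 0.0950) and 0.81 (adjusted p = 0.0934). Without NO replicate 2 the number of genes called was 30, without NO replicate 3 or CN replicate 2 it was 11, and without CN replicate 3 it was 9. The share of all genes higher in NO stayed between 35.3% and 42% in these fits.

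**Figure D4:**
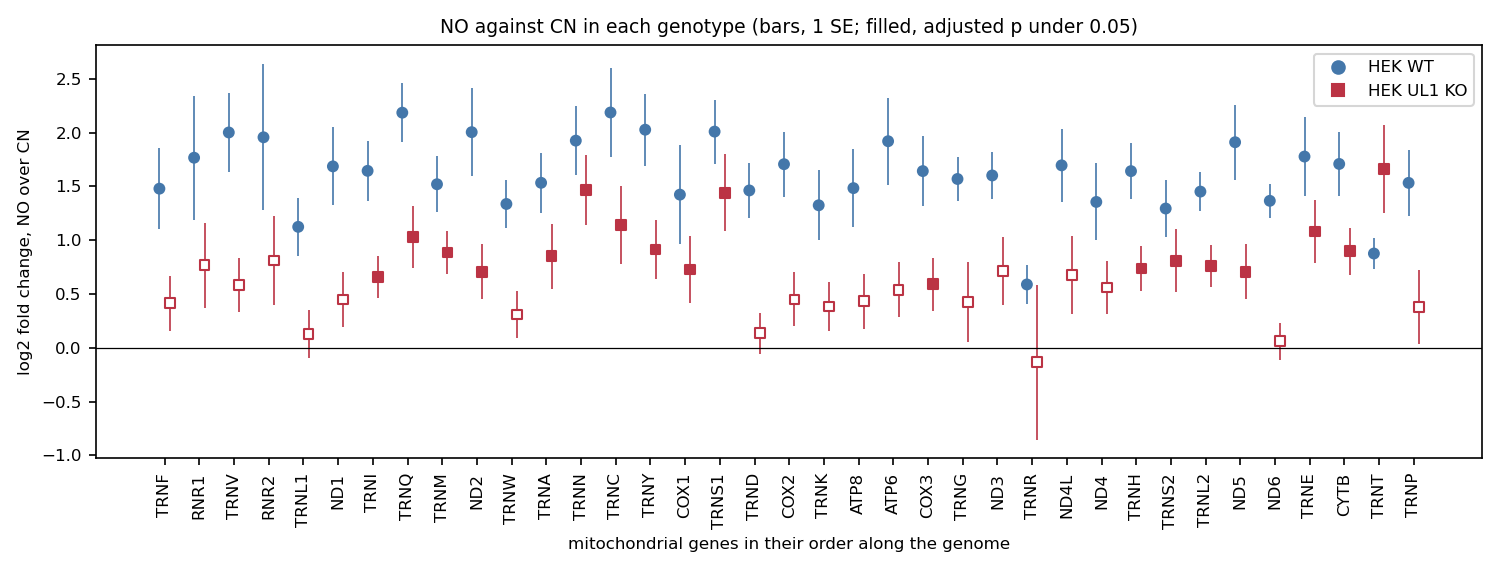
Log2 fold change of NO over CN for the 37 genes in genome order, with circles for HEK WT and squares for HEK UL1 KO, bars of 1 SE and filled symbols for an adjusted p under 0.05. The 37 circles lie between 0.59 and 2.19, and the squares between -0.14 and 1.66.

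Set against the mitochondrial mRNAs, most of the genes were not called between the fractions, which does not show that they were equal. With the libraries scaled to the 13 mRNAs, only TRNR was called in HEK WT, lower in NO (-1.01, adjusted p = 0.00279), where 55.3% of all genes tested were lower and 2.15% higher. In HEK UL1 KO, TRNT (1.07), TRNS1 (0.90) and TRNN (0.84) were higher and TRNR (-0.86), ND6 (-0.53), TRNL1 (-0.51) and TRND (-0.49) lower, beside 24.1% of all genes higher and 45.1% lower. NO replicate 2 of HEK UL1 KO stood apart in TRNT and TRNR, with per-length levels of 4656 and 87.4. In NO replicates 1 and 3 TRNT was at 1332 and 1635 and TRNR at 2358 and 2739. With the mRNA scaling the median of the minus-strand tRNAs was 0.39 in HEK WT and 0.43 in HEK UL1 KO. This scale lowers the median of all genes to -1.51 and -0.53, so it describes the mitochondrial genes against each other.

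The balance of the rRNAs was compared as the ratio of RNR2 to RNR1 per length. It was 1.47 ± 0.0160 in NO and 1.30 ± 0.147 in CN of HEK WT, and 1.42 ± 0.191 in NO and 1.35 ± 0.0641 in CN of HEK UL1 KO (SD, n = 3). Exact two-sided permutation tests gave p = 0.7 for the genotypes in NO, p = 0.6 in CN, p = 0.2 for the fractions in HEK WT and p = 0.8 in HEK UL1 KO, which after adjustment over the 4 tests were 0.8 each, where 3 libraries against 3 cannot give less than 0.1. No difference in the ratio was detectable with these libraries.

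Genes that share bases cannot be told apart with certainty in these counts. ATP8 and ATP6 overlap by 46 bases and ND4L and ND4 by 7, and per length ATP8 was at 56.7 to 107% of ATP6 and ND4L at 166 to 262% of ND4, by group mean. TRNI and TRNQ overlap by 3 bases and TRNC and TRNY by 1, on opposite strands in the former. Whether the authors' counting used the strand of reads is not given in the sources used here, so reads of TRNQ and of the other minus-strand genes may include reads of the plus-strand precursor.

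Copies of mitochondrial DNA lie in the nuclear genome, and reads were allowed up to 20 alignments. The tables list 472 such copies by name, which together held 0.237 to 1.18% of all counts in a library, and 50 of them were tested in CN, with 13 higher and 5 lower in HEK UL1 KO (26% and 10%, beside 15.6% and 22.3% of all genes). The 5 with the most counts were MTRNR2L12, MTRNR2L2 and MTRNR2L8, which resemble RNR2, MTCO1P12, which resembles COX1, and MTATP6P1, which resembles ATP6. Their log2 differences in CN were 0.41 (adjusted p = 0.0199), 0.42 (adjusted p = 0.0153), 0.29 (adjusted p = 0.0778), 0.31 (adjusted p = 0.0407) and -0.01. How many of these reads came from mitochondrial RNA was not tested.

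The nuclear genes that act on mitochondrial RNA were followed as a list of 49 enzymes and factors, all of which could be tested. In CN 19 were lower and 1 was higher in HEK UL1 KO (38.8% and 2.04%, beside the 22.3% and 15.6% of all genes), with a median of -0.21. By role, 3 of 8 genes of mitochondrial DNA maintenance, 1 of 4 of transcription, 2 of 4 of tRNA-end processing, 7 of 14 of RNA stability and decay, 3 of 11 of rRNA modification and assembly and 3 of 8 of tRNA modification and CCA addition were lower. In NO 1 was lower and 0 higher. With total counts 4 were lower and 2 higher in CN (8.16% and 4.08%, beside 6.33% and 13.6% of all genes on that scale). Leaving out 1 CN library at a time left 12 to 20 of the 49 called.

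TFB2M, which the mitochondrial RNA polymerase needs to open its promoters, was the gene of the list with the greatest change in both fractions. It was at 3.02, 2.91 and 2.86 CPM in CN of HEK WT and 0.862, 1.00 and 0.912 CPM in HEK UL1 KO (-1.66, SE 0.13, adjusted p = 7.12e-06), and in NO at 2.80, 2.88 and 1.59 CPM and at 0.885, 0.683 and 1.06 CPM (-1.46, SE 0.32, adjusted p = 0.0379). The genotypes were separate in both fractions, but the call in NO was lost on leaving out any 1 of HEK WT replicates 1 and 2 and HEK UL1 KO replicates 1 and 2. TRNT1, the enzyme that adds CCA to tRNAs, was at 8.33, 8.60 and 6.75 CPM in CN of HEK WT and 4.06, 4.32 and 3.58 CPM in HEK UL1 KO (-0.98, SE 0.11, adjusted p = 8.33e-05). PDE12, which removes adenosines from RNA ends (-0.83, adjusted p = 4.91e-05), GRSF1, an RNA-binding protein of mitochondrial RNA granules (-0.70, adjusted p = 9.74e-05), and REXO2, which degrades short RNAs (-0.63, adjusted p = 0.00114), followed in CN. ERAL1, a chaperone of the small mitochondrial rRNA, was the gene that rose (0.51, adjusted p = 0.0184). Between the fractions, 24 of the 49 (49%) were lower in NO than in CN in HEK WT and 47 (95.9%) in HEK UL1 KO, and 0 were higher in either. Of all genes tested, 20.9% were lower and 31.9% higher in HEK WT, and 35.6% and 40.7% in HEK UL1 KO. The counts of the 49 turned on the scaling. With total counts, which bring the median of all genes to 0.37 and 0.79, 0 were called in HEK WT. In HEK UL1 KO 0 were then lower and 2 higher. On that scale 2.07% of all genes were lower and 21.8% higher in HEK WT, and 2.39% and 53.6% in HEK UL1 KO.

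**Figure D5:**
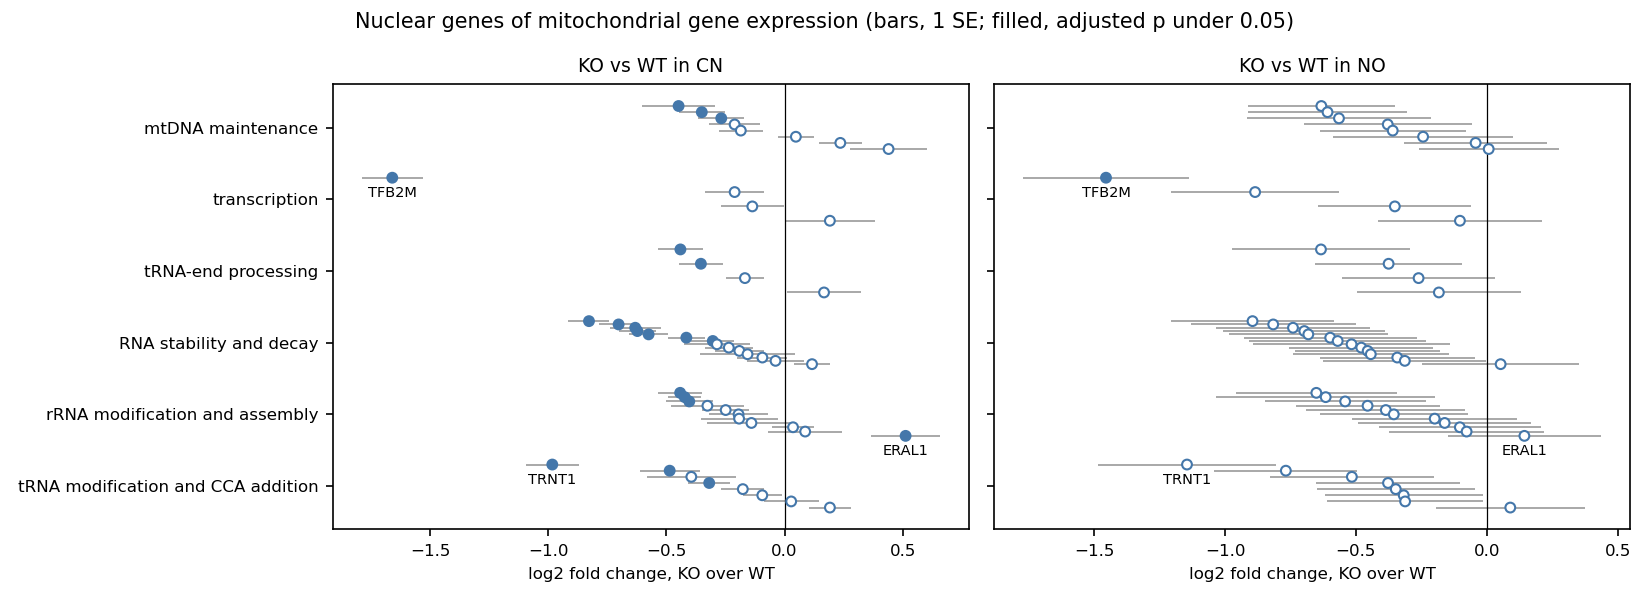
Log2 fold change of HEK UL1 KO over HEK WT for the 49 nuclear genes that act on mitochondrial RNA, by role, in CN (left) and NO (right), with bars of 1 SE and filled points for an adjusted p under 0.05. TFB2M lies lowest in both panels, at -1.66 and -1.46, and the interaction of genotype and fraction was called for 0 of the 49.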

How the data were processed

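The authors deposited raw counts per gene, 1 table for NO and 1 for CN, each with 3 libraries of either genotype. According to the study's methods and the submitters' processing notes, libraries were made without rRNA depletion, single reads of 75 bases were trimmed with cutadapt 3.7 and aligned to GRCh38 with STAR 2.7.8 with up to 20 alignments per read, and featureCounts gave the gene counts. The strand setting and the treatment of overlapping genes are not given in the sources used here. The count of the 45S precursor gene was 0.921 to 0.964 of the summed counts of its mature rRNAs.

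KO was compared with WT within each fraction, and NO with CN within each genotype, with the quasi-likelihood F test of edgeR 4.0.16 (R 4.3.3) on whole tables. Genes were kept by filterByExpr (minimum count 10, minimum total count 15), libraries were scaled with TMM, the Benjamini-Hochberg adjustment ran over all genes tested, and calls were made under 0.05. The interaction of genotype and fraction was fitted over all 12 libraries. The SE of a log2 fold change was taken as its size over the square root of F, and CPM use the TMM-scaled library sizes. Single measures were compared with exact permutation tests. Figures used Python 3.11.15 and matplotlib 3.10.9.

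The members and gene lists were chosen with earlier results of these data known. RNR1, RNR2, ND6, CYTB, COX1, ATP8, ND4L, TRNF, TRNV, TRNL1 and, per comparison, the 3 members with the highest and the 3 with the lowest log2 fold change were to be given in full, and other members could be named by their values; TRNA, TRNE, TRNY, TRNQ, TRNP and COX2 in CN and TRNQ in NO were given in full after their values were seen. From the list of 49 nuclear genes, up to 5 called genes with the greatest change in each direction were named.

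Alternatives were DESeq2 1.42.0, total counts, TMM without nuclear rRNA genes and members, scaling to the 13 mitochondrial mRNAs, 1 reference gene (SNORD3A in NO, GAPDH in CN), a filter of 10 counts in every library or none, a joint fit of all 12 libraries, the replicate number as a block, and leaving out each library. No 2 libraries of a group agreed within sampling noise (chi-square per gene of at least 17.1). The procedures were tested on simulated data.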

Additional observations from a re-analysis of the deposited data

Results flagged for a closer look

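ND6 stood out because its difference between genotypes had opposite signs in the fractions: all HEK UL1 KO libraries were lower than all HEK WT libraries in NO and higher in CN. The interaction of genotype and fraction was -1.04 on the log2 scale (SE 0.28, adjusted p = 0.455, edgeR over 12 libraries), and so did not pass the threshold.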

How the results depend on the processing

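Of the 7 minus-strand tRNAs that fell in CN, all 7 were lower and called under 13 of 15 alternatives, 6 with total counts and 3 with all 12 libraries in one fit. The cause of the other changes below was not tested. With 4 of the 37 genes called between the genotypes in NO, DESeq2 called 13, total counts 0, scaling to the mitochondrial mRNAs 0, no filter 7, a filter of 10 counts in every library 0, a joint fit of all 12 libraries 10, and leaving out 1 library 0 to 27. Of the genes each setting tested, 0.574% were lower and 0.365% higher in the main fit. These shares were 1.4% and 0.441% with DESeq2, 1.49% and 0.532% with no filter, and 2.99% and 1.62% in the joint fit. Without HEK WT replicate 3, which gave the 27, they were 15.3% and 9.87%. ND6 in NO turned to 0.23 with the mRNA scaling and to 0.21 with the reference gene SNORD3A. With 19 called in CN, total counts gave 10, all 12 libraries 3 and leaving out 1 library 12 to 18. In the main fit 22.3% of all genes in CN were lower and 15.6% higher. The shares were 6.33% and 13.6% with total counts and 6.41% and 4.74% with all 12 libraries. Between the fractions in HEK WT (37 called) the mRNA scaling gave 1, and leaving out 1 library 31 to 37. There 31.9% of all genes were higher and 20.9% lower in the main fit, and 2.15% and 55.3% with the mRNA scaling. In HEK UL1 KO (18 called) total counts gave 36, the mRNA scaling 7, at least 10 counts in every library 34, and leaving out 1 library 9 to 30. Of all genes there, 40.7% were higher and 35.6% lower in the main fit. The shares were 53.6% and 2.39% with total counts, 24.1% and 45.1% with the mRNA scaling, and 33.5% and 22% with at least 10 counts. The interaction called 0 of the 37 in all 19 alternatives; over all genes 1254 had an unadjusted p under 0.05.

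For the 49 nuclear genes, 1 was called in NO (DESeq2 2, total counts 0, 1 library left out 0 to 20) and 20 in CN (total counts 6, 1 library left out 12 to 20). Between the fractions 24 were called in HEK WT (DESeq2 37, total counts 0, 1 library left out 15 to 38) and 47 in HEK UL1 KO (total counts 2). Of all genes in HEK WT, 14.5% were lower and 17.7% higher with DESeq2, and 2.07% and 21.8% with total counts. With total counts in HEK UL1 KO these shares were 2.39% and 53.6%. As a share of counts outside nuclear rRNA the 37 genes held 35.03% and 28.95% in NO of HEK WT and HEK UL1 KO and 13.1% and 15.7% in CN. The log2 ratio of RNR2 to RNR1 between genotypes was -0.05 in NO (-0.16 to 0.0192 with 1 library left out) and 0.05 in CN (-0.0035 to 0.15), and between fractions in HEK UL1 KO 0.08 (-0.0385 to 0.14).

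Libraries with the same replicate number did not deviate together (Pearson r of -0.04 to -0.48 across genes). The deviations were taken from means of 3 libraries, so these values cannot decide whether the numbers pair the libraries. With the replicate number as a block, 3 of the 37 genes were called between genotypes in NO and 18 in CN, and 32 and 14 between fractions in HEK WT and HEK UL1 KO. Of all genes, 0.342% were then lower and 0.304% higher in NO, and 20% and 11% in CN. Between fractions 13.1% were lower and 19.5% higher in HEK WT, and 32.6% and 38.9% in HEK UL1 KO. The block left 0 of the 49 nuclear genes in NO and 14 between fractions in HEK WT.

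Over all genes, calls between the genotypes in NO numbered 327, but 1082 with DESeq2, 10 with total counts, 1190 with no filter, 143 with 10 counts in every library, 1744 with all 12 libraries, 9133 without HEK WT NO replicate 3 and 11335 with SNORD3A as the reference, which brings the median of all genes to 0.83; in CN they numbered 10323, but 5421 with total counts and 4217 with all 12 libraries. Between fractions in HEK WT the calls numbered 15494, and 6993 with total counts. The interaction calls numbered 43, and 0 with total counts. Counts of under 100 in many minus-strand tRNA libraries limit the precision of their values.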
